A study of Mus musculus with 6 samples.

Results

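The DNA replication machinery is described here as 40 genes whose proteins license replication origins, open the double helix and copy it, from the origin recognition complex to the ligase that seals the lagging strand. The members are a list of names drawn up with earlier results of these data known, and no value enters the rule: a row of the deposited table was taken where its symbol equalled a listed gene, and each symbol had 1 row. All 40 were among the 22183 genes of the table, and all 40 were among the 14005 genes that passed edgeR's filter on low counts and were tested. Their transcripts were read in RNA sequencing libraries of peritoneal endothelial cells (ECs) from 3 saline mice and 3 peritoneal dialysis (PD) mice. All 6 were normal male C57BL/6J mice aged 8 to 10 weeks, with no transgene. The PD mice had received an intraperitoneal injection of glucose-based Dianeal PD fluid every day for 6 weeks, and the saline mice an injection of saline on the same schedule. Each mouse gave 1 library, so the n of each group is 3 mice.

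Replication is prepared in the G1 phase, when the origin recognition complex (ORC) with CDC6 and CDT1 loads the ring-shaped MCM2-7 helicase onto DNA as double hexamers. At the start of S phase CDC45 and GINS join the ring and switch it on, after which polymerase alpha-primase lays primers, the clamp loader RFC places the sliding clamp PCNA, and polymerases delta and epsilon extend the strands. Single-stranded DNA is covered by RPA, and the flaps and nicks between Okazaki fragments are processed by FEN1 and LIG1. ECs of adult vessels divide rarely at rest, whereas activated lymphocytes and growing vessels hold cells in S phase. RPA, PCNA, RFC and FEN1 also take part in DNA repair, so their transcripts are not limited to cells in S phase.

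Levels are printed as CPM, the counts of a gene relative to all counted reads of that mouse after TMM scaling in edgeR, and a negative log2 fold change means a lower level in PD mice. The libraries held 21973426 to 26374292 counted reads each, of which 46214 to 68898 fell on the 40 members. The counts of single members ran from 30 in a PD mouse (Orc1) to 9919 in a saline mouse (Rpa1). By the sample labels, CD31+ cells were pulled out with magnetic beads, and by the supplementary methods, CD31+ CD45- cells were gated from digested mesentery. The EC markers were present, with Pecam1 (CD31) at 457 to 491 CPM in saline mice and 504 to 518 CPM in PD mice. Other EC markers were lower than Pecam1, such as Cdh5 (VE-cadherin) at 16.5 to 21.9 CPM in saline mice and 32.2 to 34.0 CPM in PD mice. Ptprc, the gene of CD45, which the sort was to leave out, was at 2294 to 2519 CPM in saline mice and 1404 to 1530 CPM in PD mice. No list of cell type markers had a gene at 0 in every mouse. The libraries therefore held leukocyte RNA in both groups, and a lower value in such bulk samples can mean fewer cells of a type or less RNA per cell, which cannot be told apart.

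Marker lists of several cell types moved with the treatment. Markers are counted as lower or higher where they passed the edgeR test described below, as 27.8% and 31.1% of all genes tested did. Summed CPM of 12 endothelial markers was 1195 to 1211 in saline mice and 1907 to 2017 in PD mice. Of the 12, 11 were higher and Pecam1 did not pass (log2 fold change 0.13, edgeR adjusted p = 0.0704). For 12 pan-leukocyte markers the sums were 13654 to 14431 and 10173 to 10583 CPM, with 10 lower and 1 higher. B cell markers were lower in 12 of 12, with sums of 8027 to 8324 CPM in saline mice and 3737 to 3768 CPM in PD mice, while 11 of 11 macrophage markers were higher, from 2674 to 2808 CPM up to 11165 to 12039 CPM. Germinal centre B cell markers, of a cell type that divides, went from 149 to 154 CPM down to 108 to 116 CPM, with 4 of 6 lower and 1 higher. T cell markers were at 2944 to 3028 CPM in saline mice and 2415 to 2623 CPM in PD mice, with 6 of 11 lower and 0 higher. Plasma cell markers went up from 1591 to 1704 CPM to 2488 to 2861 CPM, with 4 of 7 higher and 2 lower. Sums that were low in saline mice and far higher in PD mice included those of neutrophil (14.3 to 16.0 against 333 to 374 CPM) and mesothelial markers (15.6 to 20.3 against 171 to 197 CPM). Others were fibroblast (94.9 to 103 against 852 to 888 CPM), lymphatic endothelial (43.3 to 47.4 against 219 to 236 CPM) and pancreatic acinar markers (2.26 to 5.44 against 6753 to 7534 CPM). The 40 replication genes together were at 2689 to 2755 CPM in saline mice and 1938 to 2093 CPM in PD mice. The fit was therefore repeated with the libraries scaled to the endothelial, the pan-leukocyte and the B cell markers, and the results are given below beside those on the TMM scale. The part of the cell mixture in each result was not tested.

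On the TMM scale, 31 of the 40 replication genes were lower in PD mice (edgeR's quasi-likelihood test, Benjamini-Hochberg adjusted p under 0.05), 0 were higher and 9 did not pass. Over all genes tested, 27.8% were lower and 31.1% higher. All 40 log2 fold changes were below 0, from -0.83 (Rfc2) to -0.01 (Pold3), with a median of -0.43, beside a median of 0.02 and quartiles of -0.31 and 0.63 over all genes tested. The CPM of all PD mice lay below those of all saline mice in 31 members, against 31.6% of all genes tested, and the groups overlapped in 9. Most changes were below 1.5-fold, and 11 of the 40 members were lower by at least that much, a larger share than the 7.73% of all genes. A scaling to markers shifts all genes by about the same amount, so it sets the direction of most genes, the members included: the median over all genes tested was -0.92, 0.48 and 1.13 with endothelial-, leukocyte- and B cell-marker scaling, and that of the members -1.37, 0.03 and 0.68. With endothelial-marker scaling 40 members were lower and 0 higher, beside 70.8% and 8.33% of all genes. With leukocyte-marker scaling 4 were lower and 5 higher, beside 3.88% and 62% of all genes. With B cell-marker scaling 0 were lower and 38 higher, beside 0.3% and 94.1% of all genes, so that this count is near the background. The directions given under marker scalings in what follows carry this common shift and are no separate result for a role.

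**Figure D1:**
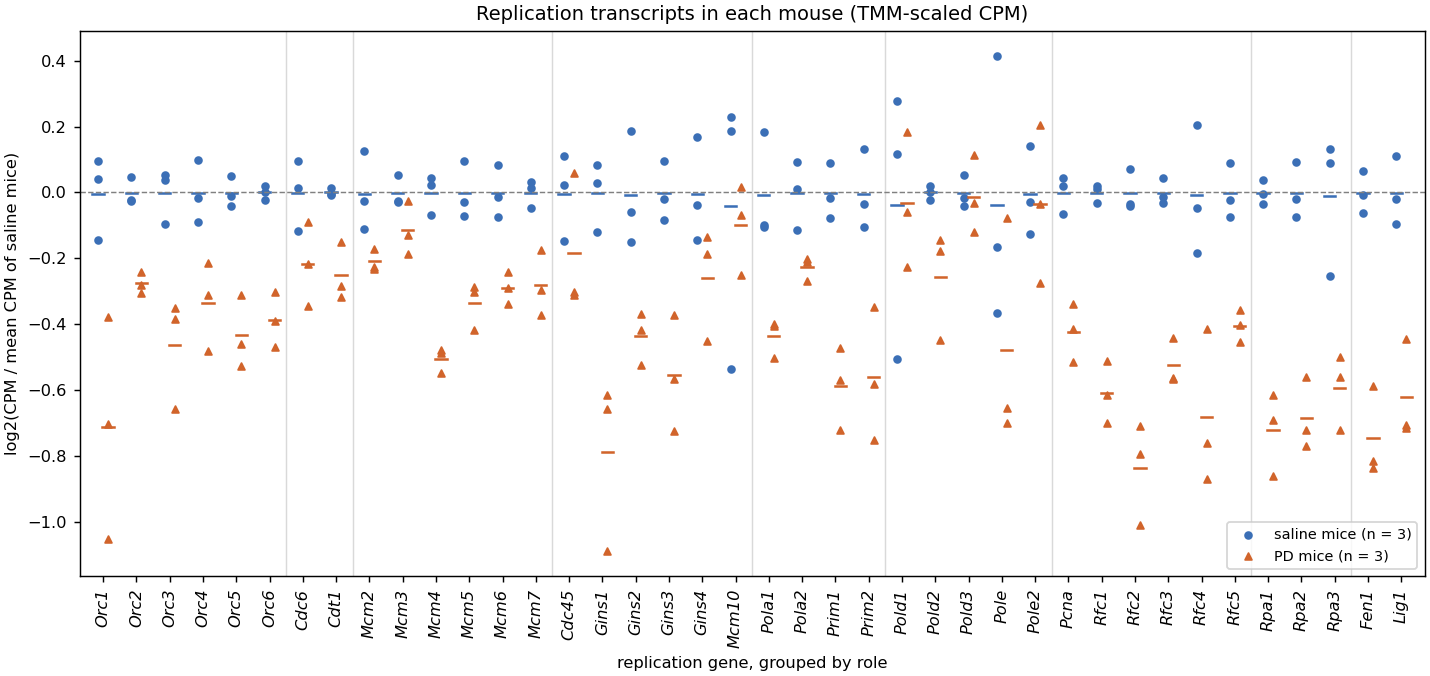
Level of each of the 40 replication genes in each mouse (TMM-scaled CPM, as log2 of the ratio to the mean of the saline mice, vertical axis), with blue circles for the 3 saline mice, orange triangles for the 3 PD mice, bars for group means and vertical lines between roles. In 31 genes all triangles lie below all circles on this scale, and with the libraries scaled to B cell markers 38 genes were higher in PD mice, as were 94.1% of all genes tested.

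Which mouse of a group had the lowest level was counted over the members, which are not independent of one another within a library. Of the 40 members, 22 were lowest in PD mouse 1 among the PD mice, 10 in PD mouse 2 and 8 in PD mouse 3. For saline mice 1, 2 and 3 these counts were 16, 10 and 14. No such count was made over all genes, so the counts do not measure how far the mice differed. With 1 mouse left out at a time, between 25 (without saline mouse 1) and 30 members were lower, and 25 of the 31 passed in all 6 of these fits. The calls lost without 1 mouse or another were those of Orc1, Cdt1, Mcm2, Gins2, Pola2 and Pold2.

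**Figure D2:**
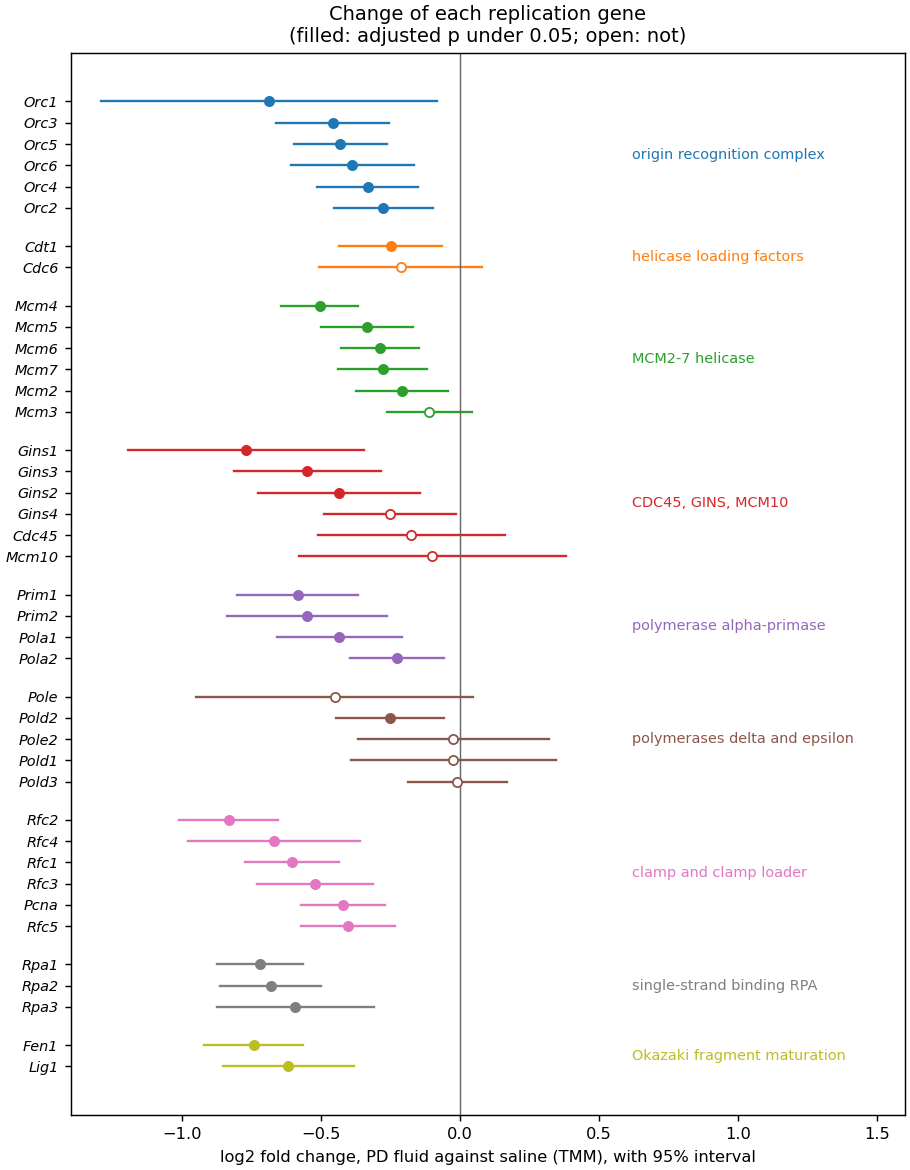
Log2 fold change of each replication gene in PD mice against saline mice on the TMM scale (horizontal axis; points with 95% intervals, n = 3 mice per group), ordered within 9 roles, where filled points passed an adjusted p of 0.05. Rfc2 lies farthest to the left at -0.83, and 4 of 5 subunits of polymerases delta and epsilon did not pass; with B cell-marker scaling, which shifts all genes upward, all 40 values are above 0.

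Some of these genes share a promoter element for E2F, the family of factors that switches on many S phase genes. Windows from 250 bases before to 50 bases after the annotated start were read from RefSeq (GRCm38.p6) for 33 of the 40 members, and no window was used for Gins1, Gins2, Gins4, Mcm4, Pole, Prim2 and Rfc2. The E2F-type letters TTTCCCGC, TTTCGCGC, TTTGCCGC or TTTGGCGC, searched on both strands, were found in 15 of the 33 members (45.5%), in 13 of 48 other replication genes (27.1%) and in 704 of 27025 genes overall (2.6%). The NF-Y box CCAAT was found in 21 of the 33 members (63.6%), against 41.1% of all genes. The letters TTTGAA of the CHR element, which is known from genes of late cell cycle phases, were found in 5 (15.2%), against 20.2% of all genes. A match describes letters in a window and is not evidence of a bound factor.

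The windows of 4 genes with matches and 2 without are shown, because they set the E2F-type letters of helicase and loader genes beside the promoters of Rpa1 and Pcna, the members with the highest levels. Each is written 5′ to 3′ along the gene, and capitals mark the E2F-type letters on either strand. In Mcm6 and Mcm5 a run of 12 capitals is 2 overlapping matches, 1 on each strand. Counted from the start site as base 0, the matches of Mcm6 begin at -110, -106 and -47, those of Mcm5 at -153 and -149, those of Mcm3 at 19 and 38, and those of Rfc3 at -10 and 0.
Mcm6 (chr1:128359656-128359955, minus strand): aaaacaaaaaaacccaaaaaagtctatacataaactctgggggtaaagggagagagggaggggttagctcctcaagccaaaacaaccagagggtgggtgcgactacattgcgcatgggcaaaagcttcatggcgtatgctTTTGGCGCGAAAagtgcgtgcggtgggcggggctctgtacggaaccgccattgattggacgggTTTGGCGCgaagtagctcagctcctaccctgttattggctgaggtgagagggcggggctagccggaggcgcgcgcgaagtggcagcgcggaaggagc
Mcm5 (chr8:75109259-75109558, plus strand): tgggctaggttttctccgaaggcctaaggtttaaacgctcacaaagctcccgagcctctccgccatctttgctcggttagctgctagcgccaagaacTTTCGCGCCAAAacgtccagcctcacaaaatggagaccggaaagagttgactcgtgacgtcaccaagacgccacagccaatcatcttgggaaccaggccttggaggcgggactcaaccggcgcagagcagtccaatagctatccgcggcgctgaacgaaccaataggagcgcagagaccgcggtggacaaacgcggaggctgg
Mcm3 (chr1:20820263-20820562, minus strand): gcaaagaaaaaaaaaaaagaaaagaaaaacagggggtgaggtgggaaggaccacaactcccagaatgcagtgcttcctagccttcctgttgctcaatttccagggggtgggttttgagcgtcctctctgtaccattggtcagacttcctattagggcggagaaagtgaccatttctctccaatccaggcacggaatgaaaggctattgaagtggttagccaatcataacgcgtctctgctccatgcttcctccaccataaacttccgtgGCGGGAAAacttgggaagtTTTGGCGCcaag
Rfc3 (chr5:151651159-151651458, minus strand): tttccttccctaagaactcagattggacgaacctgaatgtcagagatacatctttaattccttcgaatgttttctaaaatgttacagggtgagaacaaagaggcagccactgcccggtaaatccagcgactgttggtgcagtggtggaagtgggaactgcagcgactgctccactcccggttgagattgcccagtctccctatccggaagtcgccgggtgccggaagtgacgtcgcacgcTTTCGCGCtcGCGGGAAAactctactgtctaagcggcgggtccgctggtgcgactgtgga
Rpa1 (chr11:75348334-75348633, minus strand): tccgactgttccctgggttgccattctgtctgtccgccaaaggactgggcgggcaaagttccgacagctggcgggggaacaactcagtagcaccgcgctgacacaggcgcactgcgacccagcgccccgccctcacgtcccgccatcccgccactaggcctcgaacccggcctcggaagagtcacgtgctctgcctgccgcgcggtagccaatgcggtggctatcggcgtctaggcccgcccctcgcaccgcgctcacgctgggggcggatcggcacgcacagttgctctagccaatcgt
Pcna (chr2:132253131-132253430, minus strand): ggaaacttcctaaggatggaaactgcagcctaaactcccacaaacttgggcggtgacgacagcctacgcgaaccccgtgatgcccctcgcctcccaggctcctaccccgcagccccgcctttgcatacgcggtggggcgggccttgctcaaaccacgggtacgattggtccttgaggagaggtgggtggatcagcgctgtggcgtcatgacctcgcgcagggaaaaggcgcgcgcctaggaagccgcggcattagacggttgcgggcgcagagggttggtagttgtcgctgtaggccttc

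The ORC binds origins and is the platform on which the helicase is loaded. On the TMM scale all 6 subunits were lower in PD mice with a median log2 fold change of -0.41, whereas with leukocyte-marker scaling 0 of 6 passed (median 0.05) and with B cell-marker scaling 5 were higher (median 0.70). Orc1, the subunit whose level rises and falls over the cell cycle, had 2.07, 2.35 and 2.44 CPM in saline mice and 1.10, 1.76 and 1.404 CPM in PD mice. All PD mice were below all saline mice, by a log2 fold change of -0.69 ± 0.27 (SE, edgeR adjusted p = 0.0498). That call rests on 30 to 59 counts per mouse and was lost without any of the mice other than PD mouse 2, with adjusted p of up to 0.165. Orc2 had the smallest change, from 35.5, 35.4 and 37.3 CPM in saline mice to 29.7, 30.5 and 29.2 CPM in PD mice, without overlap (-0.28 ± 0.08, edgeR adjusted p = 0.0123). The core subunits Orc3 (-0.46), Orc4 (-0.33) and Orc5 (-0.43) and the small subunit Orc6 (-0.39) had edgeR adjusted p from 0.00067 to 0.00692, and each kept its call without any 1 mouse.

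CDC6 and CDT1 bring the helicase to ORC, and CDT1 is destroyed once S phase begins. Cdt1 was at 35.2, 35.7 and 35.2 CPM in saline mice and 29.1, 31.9 and 28.4 CPM in PD mice. The groups did not overlap (-0.25 ± 0.08 SE, edgeR adjusted p = 0.0254), but the call was lost without saline mouse 1, PD mouse 1 or PD mouse 3, with adjusted p from 0.0686 to 0.08. Cdc6 had 11.3, 10.7 and 9.77 CPM in saline mice and 9.12, 8.34 and 9.96 CPM in PD mice, where PD mouse 3 overlapped with the saline mice. Its log2 fold change of -0.21 did not pass (95% interval -0.51 to 0.08, edgeR adjusted p = 0.187). Under leukocyte-marker scaling both were above 0, at 0.25 (Cdc6) and 0.21 (Cdt1), without passing.

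MCM2 to MCM7 form the hexameric ring that unwinds DNA ahead of the polymerases. On the TMM scale 5 of the 6 were lower (median -0.28), but with leukocyte-marker scaling 0 were lower and Mcm2 and Mcm3 were higher, and with B cell-marker scaling all 6 were higher. Mcm4 changed most, from 142, 152 and 154 CPM in saline mice to 102, 106 and 107 CPM in PD mice (-0.51 ± 0.06 SE, edgeR adjusted p = 5.6e-05). Mcm2, at 89.0, 83.9 and 98.8 CPM in saline mice and 77.2, 80.4 and 77.4 CPM in PD mice, was the least changed of those that passed (-0.21 ± 0.08 SE, edgeR adjusted p = 0.0339). The Mcm2 groups did not overlap, yet the call was held in 1 of the 6 fits that left out a mouse, the one without saline mouse 2, and adjusted p was up to 0.12 in the others. Mcm3 overlapped between the groups at 90.4, 90.5 and 95.6 CPM against 90.4, 84.3 and 81.0 CPM. It did not pass (-0.11, 95% interval -0.26 to 0.04, edgeR adjusted p = 0.185). Mcm5 (-0.33), Mcm6 (-0.29) and Mcm7 (-0.28) were between these, with edgeR adjusted p from 0.00267 to 0.00723. Since Mcm4 and Mcm3 belong to the same ring, their ratio was taken within each mouse, which no scaling alters: the log2 ratio of Mcm4 to Mcm3 was 0.66, 0.75 and 0.69 in saline mice and 0.18, 0.34 and 0.40 in PD mice. The ratio was thus lower by 0.39 in PD mice without overlap, a pair chosen after its values were seen and not tested.

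CDC45 and the 4 GINS proteins turn the MCM ring into the active helicase, and MCM10 is needed for that step. Of these 6 genes 3 were lower on the TMM scale (median -0.34), while with leukocyte-marker scaling none passed (median 0.12) and with B cell-marker scaling all but Gins1 were higher. Gins1 was lowest relative to saline mice, with 5.46, 4.93 and 5.67 CPM in saline mice and 3.49, 2.52 and 3.40 CPM in PD mice. Its groups were well separated (-0.77 ± 0.19 SE, edgeR adjusted p = 0.00554). Gins2 went from 15.2, 12.03 and 12.8 CPM to 10.003, 10.4 and 9.28 CPM (-0.44 ± 0.13 SE, edgeR adjusted p = 0.015) and lost its call without saline mouse 1 or PD mouse 3, with adjusted p of 0.0773 and 0.0509. Gins3 changed by -0.55 with an edgeR adjusted p of 0.00258. The 2 members of the group with the most reads among those that did not pass were Gins4 and Cdc45. Gins4 was at 42.5, 52.8 and 45.7 CPM in saline mice and 34.3, 42.8 and 41.3 CPM in PD mice, with PD mouse 2 just above saline mouse 1 (-0.25 ± 0.11 SE, edgeR adjusted p = 0.0645). Cdc45 had 9.99, 9.40 and 8.36 CPM in saline mice and 7.5025, 7.46 and 9.65 CPM in PD mice, so that 1 PD mouse lay within the saline range (-0.18, 95% interval -0.51 to 0.16, edgeR adjusted p = 0.34). For Mcm10, at 3.46 to 5.88 CPM, the value of -0.10 turned to 0.01 without saline mouse 1, to 0.02 without saline mouse 3 and to -0.30 without saline mouse 2.

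Polymerase alpha-primase makes the short RNA-DNA primers from which each Okazaki fragment starts. All 4 subunits were lower on the TMM scale (median -0.49), but with leukocyte-marker scaling 0 were lower and Pola2 was higher, and with B cell-marker scaling all 4 were higher. The primase subunit Prim1 went from 32.3, 34.8 and 31.0 CPM in saline mice to 19.8, 22.05 and 23.6 CPM in PD mice (-0.59 ± 0.10 SE, edgeR adjusted p = 0.000474). Its partner Prim2 changed by -0.55 (edgeR adjusted p = 0.00394) and the catalytic subunit Pola1 by -0.43 (edgeR adjusted p = 0.0037). Pola2, the accessory subunit, was at 67.4, 58.4 and 63.7 CPM in saline mice and 54.5, 52.5 and 54.9 CPM in PD mice. This was the smallest of the 4 changes (-0.23 ± 0.08 SE, edgeR adjusted p = 0.0254), and it did not pass without saline mouse 1, saline mouse 3 or PD mouse 2, with adjusted p up to 0.133. Within each mouse the log2 ratio of Prim1 to Pola2 was -1.06, -0.75 and -1.04 in saline mice and -1.46, -1.25 and -1.22 in PD mice, lower without overlap and likewise chosen after the values were seen.

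Polymerases delta and epsilon carry out the bulk of lagging and leading strand synthesis. Their 5 listed subunits differed least, with 1 lower on the TMM scale and a median of -0.02, and with leukocyte-marker scaling Pold3 and Pole2 were higher, while with B cell-marker scaling all 5 were higher. Pold2 was the one that passed, with 64.7, 63.7 and 65.5 CPM in saline mice and 57.1, 47.4 and 58.5 CPM in PD mice (-0.25 ± 0.09 SE, edgeR adjusted p = 0.0298). Without saline mouse 1, saline mouse 3 or PD mouse 2 it did not pass, and without PD mouse 2, the lowest, its log2 fold change was -0.15. The catalytic subunit Pold1 spread widely among saline mice, at 116, 75.2 and 129 CPM, and stood at 121, 103 and 91.4 CPM in PD mice. The 2 groups overlapped (-0.02 ± 0.17 SE, edgeR adjusted p = 0.913), and the value was -0.22 without saline mouse 2 and 0.13 without saline mouse 3. Pold3 had 54.0, 57.7 and 54.9 CPM in saline mice and 51.1, 54.4 and 60.1 CPM in PD mice, with an interval of -0.19 to 0.17 around -0.01. Pole, the catalytic subunit of polymerase epsilon, changed by -0.45 with a wide interval of -0.95 to 0.05 (edgeR adjusted p = 0.108), and passed without saline mouse 3 (-0.61) or PD mouse 2 (-0.67). Pole2 was at -0.02, with an interval of -0.37 to 0.32.

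PCNA is the ring that holds polymerases on DNA, and RFC1 to RFC5 form the loader that opens and closes it. On the TMM scale all 6 were lower with a median of -0.57, which with leukocyte-marker scaling became -0.11 with Rfc2 alone lower, and which with B cell-marker scaling turned to 0.54 with all 6 higher. Rfc2 had the largest change of the 40 members, from 197, 213 and 198 CPM in saline mice to 101, 117 and 124 CPM in PD mice. It was 1.78-fold lower (-0.83 ± 0.08 SE, edgeR adjusted p = 8.8e-06), and 3.48% of all genes tested had a lower value. Rfc5, the least changed, went from 60.1, 65.0 and 58.0 CPM to 44.6, 46.2 and 47.6 CPM (-0.40 ± 0.08 SE, edgeR adjusted p = 0.001). The large subunit Rfc1 (-0.61), Rfc4 (-0.67), Rfc3 (-0.52) and Pcna (-0.42) had edgeR adjusted p from 6.58e-05 to 0.00199. None of the 6 lost its call when any 1 mouse was left out. The log2 ratio of Rfc2 to Rfc5 within each mouse was 1.71, 1.71 and 1.77 in saline mice and 1.18, 1.34 and 1.38 in PD mice. In these counts the 2 genes of the same loader changed unequally, a pair picked after the values were known. A part of the Rfc2 gene, 15.1% of its exon bases, lies opposite exons of Lat2, a signalling adaptor of B cells and mast cells, which was lower by a larger amount (log2 fold change -1.12, edgeR adjusted p = 9.34e-08). In Rfc5, 10.7% of exon bases lie opposite Wsb2, which was higher in PD mice (log2 fold change 0.52, edgeR adjusted p = 0.000128). Whether reads of Lat2 and Wsb2 entered the ratio of Rfc2 to Rfc5 was not tested.

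RPA coats single-stranded DNA at forks and at sites of repair. All 3 subunits were lower by at least 1.5-fold on the TMM scale with a median of -0.68, and with leukocyte-marker scaling Rpa1 and Rpa2 were still lower (median -0.22), but with B cell-marker scaling all 3 were higher (median 0.43). Rpa1, the large DNA-binding subunit, had 387, 395 and 407 CPM in saline mice and 218, 246 and 259 CPM in PD mice. No other member had as many reads, and its groups were far apart (-0.72 ± 0.07 SE, edgeR adjusted p = 9.29e-06). Rpa3, the smallest subunit, went from 22.8, 23.5 and 17.96 CPM to 13.0, 14.5 and 15.1 CPM (-0.59 ± 0.13 SE, edgeR adjusted p = 0.00233). For Rpa2 the log2 fold change was -0.68 (edgeR adjusted p = 4.66e-05).

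FEN1 removes the flap at the end of each Okazaki fragment and LIG1 joins the fragments. Both were lower on the TMM scale, and with leukocyte-marker scaling Fen1 was still lower and Lig1 did not pass (-0.16), while with B cell-marker scaling both were higher. Fen1 was at 115, 119 and 126 CPM in saline mice and 67.2, 68.2 and 79.9 CPM in PD mice (-0.74 ± 0.08 SE, edgeR adjusted p = 2.12e-05). Lig1 went from 29.8, 31.4 and 34.4 CPM to 19.4, 19.5 and 23.4 CPM (-0.62 ± 0.11 SE, edgeR adjusted p = 0.000565). In both genes every PD mouse was below every saline mouse.

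**Figure D3:**
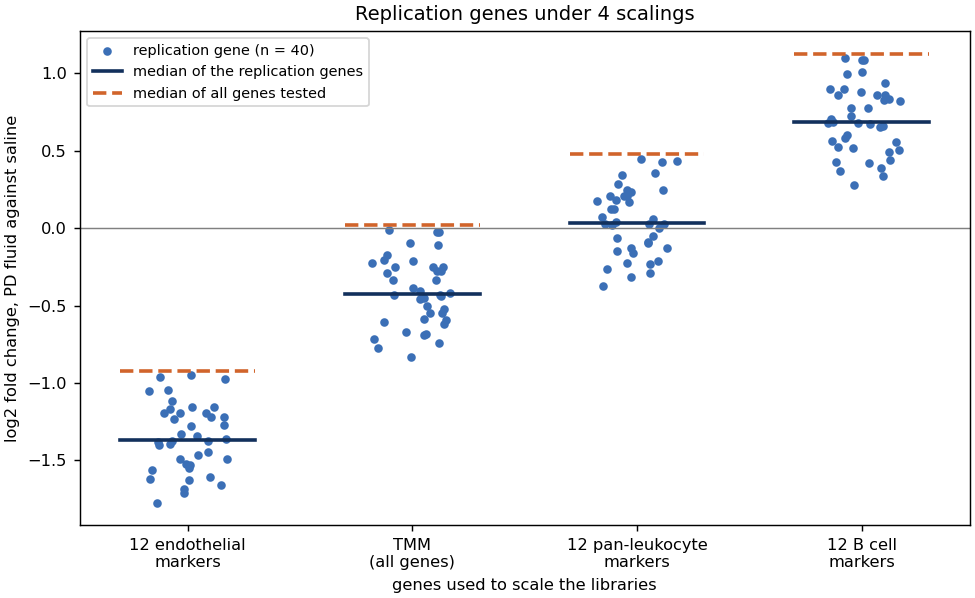
Log2 fold changes of the 40 replication genes (points, PD fluid against saline, vertical axis) with the libraries scaled to 12 endothelial markers, by TMM, to 12 pan-leukocyte markers or to 12 B cell markers, with their median (solid line) and that of all genes tested (dashed line). Both medians move together, from -1.37 to 0.68 for the members and from -0.92 to 1.13 for all genes, because a scaling shifts all genes alike.

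The roles did not move by the same amount, which was examined with ratios between roles, since these do not depend on the scaling. The geometric mean CPM of each role was divided by that of MCM2-7 in the same mouse, a comparison chosen after the values were seen and therefore given without a test. In 3 of 8 roles all PD mice were below all saline mice. The log2 ratio of the clamp and its loader to MCM2-7 was -0.77, -0.70 and -0.89 in saline mice and -1.13, -1.08 and -1.01 in PD mice, a difference of -0.29. For RPA it was -0.31, -0.27 and -0.51 against -0.82, -0.74 and -0.65, a difference of -0.38. For the Okazaki fragment genes it was -0.86, -0.82 and -0.80 against -1.30, -1.29 and -1.08, a difference of -0.40. Relative to the helicase, then, the transcripts of these 3 roles were lower in PD mice whatever the scale. The ratios of ORC, the loading factors, CDC45 with GINS and MCM10, polymerase alpha-primase, and polymerases delta and epsilon overlapped between the groups, with differences of -0.15, 0.06, -0.09, -0.16 and 0.14. Ratios were also computed for 6 pairs of single genes, all picked after the values were seen. In each pair the gene with the larger fall was divided by the other, so a lower ratio in PD mice was set by that choice. The groups did not overlap in 5 pairs, Rpa1 to Mcm6 (-0.43) and Pcna to Mcm6 (-0.13) among them, and overlapped for Orc3 to Orc2 (-0.19). The count of pairs is therefore no separate result.

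Levels of different genes were compared per gene length with the deposited FPKM values. In saline mice the members spanned 161.1-fold, from Rpa1 at 122 ± 4.16 FPKM (SD, n = 3) to Orc1 at 0.756 ± 0.06 FPKM (SD, n = 3), with a median of 22.3 FPKM. The next highest were Pcna (86.4 ± 2.87 FPKM), Mcm6 (70.2 ± 3.28 FPKM), Orc4 (56.5 ± 4.39 FPKM) and Fen1 (54.7 ± 2.72 FPKM), and the next lowest were Mcm10 (1.39 ± 0.42 FPKM) and Pole (2.18 ± 0.66 FPKM). Neighbours in this order did not differ beyond the range of the mice in 25 of 39 adjacent pairs, among them Orc4 and Fen1, whereas Rpa1, Pcna and Mcm6 were each apart from the next. The place of Orc4 depends on the gene length used, since by CPM per kilobase of annotated exons it was at rank 16 (15.6, against 49.6 for Fen1 and 44.5 for Mcm6), though it was still the highest of the ORC. Subunits that act in 1 complex did not share a level: the ORC ran from Orc1 at 0.756 to Orc4 at 56.5 FPKM, while MCM2-7 stayed between 26.8 (Mcm2) and 70.2 FPKM (Mcm6). In PD mice the median was 18.5 FPKM and the order was similar at both ends, with Rpa1 (73.7 ± 4.16 FPKM) highest and Orc1 (0.473 ± 0.11 FPKM) lowest. Rfc2 moved from rank 6 to rank 15 and Rpa2 from rank 8 to rank 14. Pold1 went from rank 15 to rank 7 with nearly the same mean (31.0 ± 8.46 FPKM in saline mice, 30.6 ± 5.26 FPKM in PD mice, SD, n = 3). In both groups each of the 3 genes overlapped with the next in the order, so their exact ranks are not resolved. In these deposited FPKM values 39 members had a lower mean in PD mice and Pold3 a slightly higher one, at 19.6 FPKM against 19.4 FPKM.

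**Figure D4:**
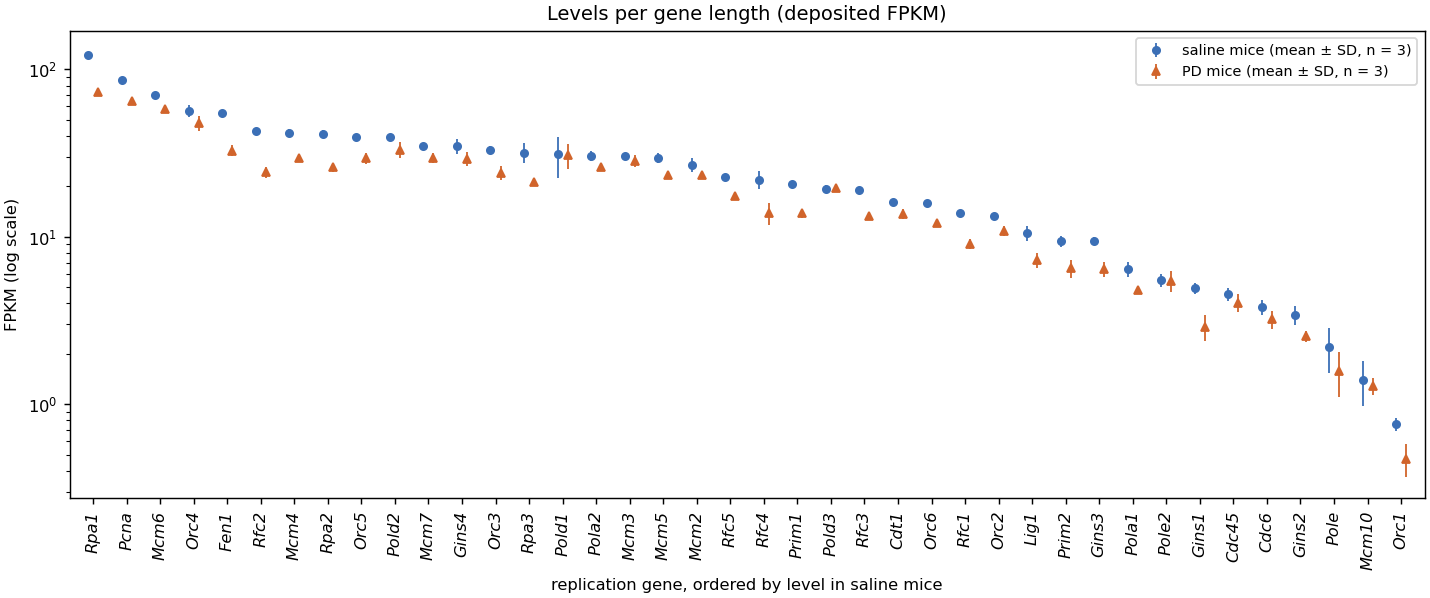
Deposited FPKM of the 40 replication genes (log axis, mean with SD, n = 3 mice per group), ordered by the level in saline mice, with blue circles for saline mice and orange triangles for PD mice. The levels run from 122 FPKM (Rpa1) to 0.756 FPKM (Orc1) in saline mice, and neighbours in the order often overlap.

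Beyond the 40 members, 61 further genes of replication and the cell cycle were taken from a list by role, and all 61 were tested. On the TMM scale 30 were lower, 2 higher and 29 did not pass (median -0.29), beside 27.8% lower and 31.1% higher over all genes tested. With endothelial-marker scaling 57 were lower and 0 higher, beside 70.8% and 8.33% of all genes. With leukocyte-marker scaling 4 were lower and 18 higher, beside 3.88% and 62%. With B cell-marker scaling 0 were lower and 56 higher, beside 0.3% and 94.1%. Pold4, the remaining subunit of polymerase delta, was lower in PD mice, at 37.6 ± 1.22 CPM against 57.6 ± 3.03 CPM (SD, n = 3; log2 fold change -0.62, edgeR adjusted p = 5.83e-05). Of 8 fork genes 4 were lower and 0 higher, beside 27.8% and 31.1% of all genes. Among the lower was Tipin, which stabilises stalled forks with Timeless, at 53.9 ± 1.5 and 29.5 ± 3.83 CPM (SD, n = 3; -0.87, edgeR adjusted p = 2.73e-05). Timeless itself was at 0.10 without passing (edgeR adjusted p = 0.357). In nucleotide supply 6 of 8 genes were lower, beside 27.8% of all genes, led by Rrm2b, the ribonucleotide reductase subunit induced by p53 (-0.69, edgeR adjusted p = 0.000188). The histone chaperone Asf1b changed by -0.73, the RNase H2 subunit Rnaseh2a by -0.34 and the MCM-binding protein Mcmbp by -0.34. In the group of Asf1b 3 of 6 genes were lower, while Uhrf1 (-0.02) and Dnmt1 (0.03) were among those that did not pass.

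Few of the E2F genes passed on the TMM scale. Of 8 E2F genes 1 was lower, 1 was higher and 6 did not pass (median 0.03). Over all genes tested 27.8% were lower and 31.1% higher. With leukocyte-marker scaling 5 were higher, beside 62% of all genes, and with B cell-marker scaling all 8 were, beside 94.1%. With endothelial-marker scaling 6 were lower, beside 70.8% of all genes. The counts under marker scalings are near the background and are no result for this family. E2f1, an activator of S phase genes, had 8.04, 4.70 and 6.17 CPM in saline mice and 10.6, 12.2 and 11.1 CPM in PD mice, higher in all 3 PD mice (log2 fold change 0.83 ± 0.19 SE, edgeR adjusted p = 0.00276), though with endothelial-marker scaling it was at -0.11. The other further gene that was higher was Recql4, a helicase of origin firing. It had 1.21, 0.65 and 1.24 CPM in saline mice and 1.73, 2.93 and 1.86 CPM in PD mice (1.06 ± 0.35 SE, edgeR adjusted p = 0.0223). That call rests on 14 to 70 counts per mouse, and with endothelial-marker scaling the value was 0.11 without passing. In the same group of 7 initiation and origin firing genes 3 were lower, beside 27.8% of all genes. Mtbp (-0.90, edgeR adjusted p = 0.000148) and Cdc7 (-0.58, edgeR adjusted p = 0.000152) were among them. Among 9 cycling-cell markers 6 were lower on the TMM scale (median -0.48), beside 27.8% of all genes tested. With leukocyte-marker scaling 1 was lower and 1 higher, beside 3.88% and 62% of all genes. With B cell-marker scaling 7 were higher, beside 94.1%, and with endothelial-marker scaling 9 were lower, beside 70.8%. Ccnb1, the cyclin of mitotic entry, was at 31.8 ± 3.01 and 17.2 ± 0.58 CPM (SD, n = 3), a log2 fold change of -0.89 (edgeR adjusted p = 2.82e-05), and its kinase Cdk1 changed by -0.67 (edgeR adjusted p = 0.000956). Mki67, the gene of the Ki-67 antigen, did not differ beyond its spread, at 13.9 ± 0.26 and 13.97 ± 1.28 CPM (SD, n = 3), and was chosen after its values were seen.

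**Figure D5:**
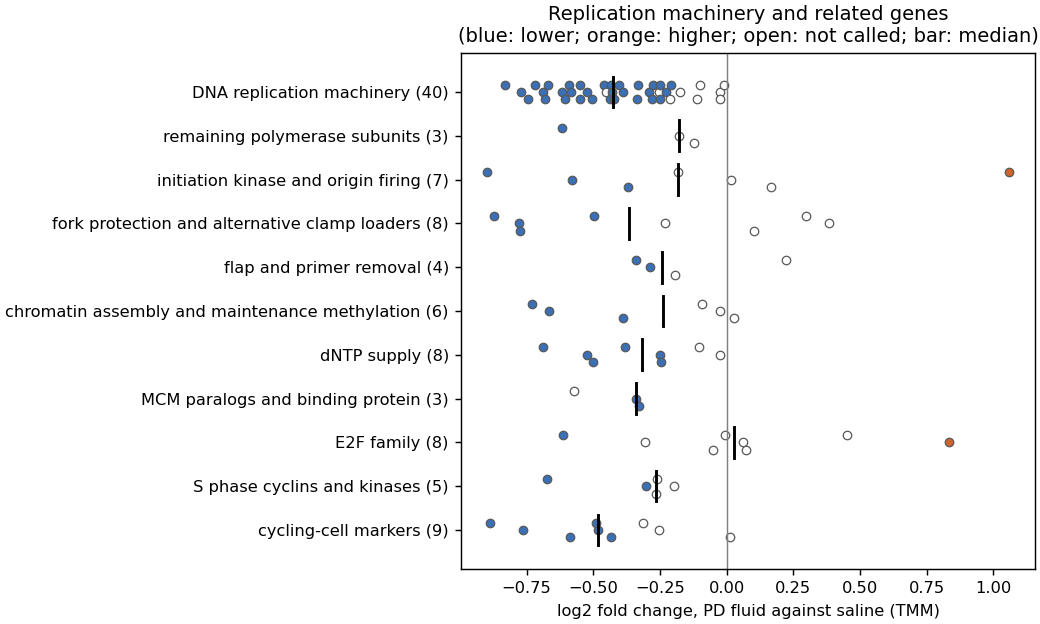
Log2 fold changes on the TMM scale (horizontal axis) of the 40 members and of 61 further genes in 10 role groups, with the number of genes in brackets, where blue points passed as lower, orange points as higher, open points did not pass and bars mark medians. The members' median is -0.43 and that of the E2F family 0.03; with B cell-marker scaling, which shifts all genes upward, all of these medians are above 0.

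The promoter windows shown above were set beside the changes as a description. Of the 15 members with E2F-type letters 10 were lower on the TMM scale, with a median log2 fold change of -0.29, and of the 18 members with a window but no match 16 were lower, with a median of -0.41. The share lower over all genes tested was 27.8%, with a median log2 fold change of 0.02. The difference between members with and without a match was not tested. Mcm6, with 3 matches, changed by -0.29, and Mcm3, with 2, did not pass. Rpa1 and Pcna, whose windows held none, changed by -0.72 and -0.42. The 7 members with no window used here had a median of -0.51, and 5 of them were lower.

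The members lie on 13 chromosomes, with 7 on chromosome 5 and 6 on chromosome 8, so they do not come from 1 region. On GRCm38 with the GENCODE M21 annotation, Rpa1 (ENSMUSG00000000751) spans chr11:75298166-75348324, Rfc2 (ENSMUSG00000023104) chr5:134581366-134601805, Fen1 (ENSMUSG00000024742) chr19:10199132-10204169, Mcm4 (ENSMUSG00000022673) chr16:15623897-15637400 and Gins1 (ENSMUSG00000027454) chr2:150905400-150931280. In 13 members some exon bases are shared with a gene on the other strand, where reads of the 2 genes cannot be told apart unless strand was used in counting, which the sources used here do not state. The shared part was 78.8% of exon bases in Fen1, 67.3% in Gins2, opposite Gse1, and 29.8% in Orc2, opposite Nif3l1. For Fen1 the gene opposite that part, Gm10143, had no row in the table. Tmem258, opposite 5.37% of the exon bases of Fen1, was lower (-0.46, edgeR adjusted p = 0.00164). Gse1 had a log2 fold change of 0.28 that did not pass (edgeR adjusted p = 0.129), and Nif3l1 one of -0.56 (edgeR adjusted p = 0.0011). Some genes opposite a smaller part had many more reads than the member. Among them were Eif4a2 with 37723 counts in all mice against 3130 for Rfc4, and Vps35 with 37345 against 2552 for Orc6. Ufd1 had 15529 against 1257 for Cdc45. The log2 fold changes of Eif4a2, Vps35 and Ufd1 were -0.25, -0.05 and -0.41. Of the 27 members that share no exon base with the other strand, 20 were lower, with a median of -0.42, and of the 13 that do, 11 were lower. Both counts stand beside 27.8% of all genes tested.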

How the data were processed

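Libraries came from the peritoneal ECs of 6 mice, 3 on saline and 3 on PD fluid for 6 weeks, and were grouped by the treatment in the sample labels. The authors deposited 1 table of 22183 genes that gives per mouse a raw read count, not normalized, and the FPKM they computed, normalized to gene length and depth. The same table holds the authors' group means and their own comparison (log2 ratio, p-value and FDR), which were not used. The submitters' processing notes name fastp 0.18.0, Bowtie2 2.2.8, HISAT2, StringTie 1.3.1 and RSEM, without roles. The genome build and the strand setting of the counting are not given in the sources used here, and the library kit, NEBNext Ultra RNA, was used with poly(A) selection. Gene positions are from GENCODE M21 (GRCm38), to which 22128 identifiers matched, and promoter windows are from RefSeq GRCm38.p6.

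Counts were filtered with filterByExpr, scaled by TMM and tested with the quasi-likelihood test of edgeR 4.0.16 (R 4.3.3) without covariates, with Benjamini-Hochberg adjustment over 14005 genes and a threshold of 0.05. The code was tested on simulated data. FPKM values entered no test. Standard errors follow from the log2 fold change and its F statistic. Total counts of 21973426 to 26374292 per mouse set the precision. Alternatives were DESeq2 1.42.0, its size factors, library totals, scaling to marker lists, no filter, limma-voom (limma 3.58.1), the replicate number as a block, a 1.5-fold minimum and leaving out each mouse. Tables were made with Python 3.11.15 and pandas 2.3.3. Values in every mouse are given, in each role, for the genes with the largest and the smallest change among those that passed and for up to 2 that did not, by level. Of the further replication genes, those with the largest change that passed in each group, and those of opposite direction, were eligible to be named. The members and all lists were chosen with earlier results of these data known, so no test over a list was made. Protein features were not analysed here.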

Additional observations from a re-analysis of the deposited data

How the results depend on the processing

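With DESeq2 size factors or library totals in place of TMM, 31 members were lower and 0 higher, with medians of -0.44 and -0.42. No filter gave 30, DESeq2 30 and limma-voom 31 members lower, and Orc1 was the call lost without the filter and with DESeq2. Requiring 1.5-fold left 11 members lower. The replicate block gave 30 lower: it lost Orc1 and Mcm2 and added Gins4. The replicate numbers did not pair the mice, since the deviations of same-numbered mice correlated at 0.16, 0.06 and -0.24. Leaving out each mouse in turn gave 25 to 30 members lower with medians of -0.46 to -0.37, and 25 to 30 further genes lower and 1 to 3 higher (1 without PD mouse 2). CPM per kilobase of annotated exons in place of FPKM moved the median level to 12.2 (saline) and 9.68 (PD fluid), and Orc4 in saline mice from rank 4 to rank 16.

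Scaling to cell type markers shifted all genes alike, the members included. With endothelial-marker scaling 40 members were lower (median -1.37), and of the further genes 57 were lower and 0 higher (median -1.23). With leukocyte-marker scaling 4 members were lower and 5 higher (median 0.033), and of the further genes 4 lower and 18 higher (median 0.17). With B cell-marker scaling 0 members were lower and 38 higher (median 0.68), and of the further genes 0 lower and 56 higher (median 0.82). Over all genes, 70.8%, 3.88% and 0.3% were lower and 8.33%, 62% and 94.1% higher under these scalings.

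The log2 fold changes that were above 0 with leukocyte-marker scaling, of which Mcm2, Mcm3, Pola2, Pold3 and Pole2 passed, were Orc2 0.18, Orc3 0.001, Orc4 0.12, Orc5 0.029, Orc6 0.0696, Cdc6 0.25, Cdt1 0.21, Mcm2 0.25, Mcm3 0.35, Mcm5 0.12, Mcm6 0.17, Mcm7 0.18, Cdc45 0.28, Gins2 0.025, Gins4 0.21, Mcm10 0.35, Pola1 0.026, Pola2 0.23, Pold1 0.43, Pold2 0.21, Pold3 0.45, Pole 0.017, Pole2 0.44, Pcna 0.037 and Rfc5 0.056. Those above 0 with B cell-marker scaling were Orc1 0.42, Orc2 0.83, Orc3 0.65, Orc4 0.78, Orc5 0.68, Orc6 0.72, Cdc6 0.90, Cdt1 0.86, Mcm2 0.90, Mcm3 1.00, Mcm4 0.60, Mcm5 0.77, Mcm6 0.82, Mcm7 0.83, Cdc45 0.93, Gins1 0.34, Gins2 0.67, Gins3 0.56, Gins4 0.86, Mcm10 1.01, Pola1 0.68, Pola2 0.88, Prim1 0.52, Prim2 0.56, Pold1 1.08, Pold2 0.86, Pold3 1.10, Pole 0.66, Pole2 1.09, Pcna 0.69, Rfc1 0.50, Rfc2 0.28, Rfc3 0.58, Rfc4 0.44, Rfc5 0.71, Rpa1 0.39, Rpa2 0.43, Rpa3 0.52, Fen1 0.37 and Lig1 0.49, where Orc1 and Gins1 did not pass. Values near 0 changed sign elsewhere without passing: Pold1 was 0.0022 with limma-voom and 0.0026 with the replicate block. With 1 mouse left out, Pold1 ran from -0.22 to 0.13, Mcm10 from -0.30 to 0.024, Pold3 from -0.069 to 0.042 and Pole2 from -0.14 to 0.089. Each marker scaling rests on 12 genes, and the cause of its difference from TMM was not tested. At these depths Orc1, with 30 to 59 counts per mouse, had the widest interval of the members.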
